A study of Drosophila melanogaster with 3 samples.

Results

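The Drosophila melanogaster peaks described here are TSS-proximal intronic peaks of the protein made from CG4318, that is, peaks inside genes and close to a transcription start site (TSS) but outside the promoter window. A peak was included when its summit lay 501 to 2000 bp from the nearest TSS of a protein-coding gene, in no annotated exon of any gene and inside the body of a protein-coding gene. The rule used position alone, and 815 of the 5056 reproducible peaks met it, or 16.1% (95% Wilson interval 15.1 to 17.2). The bases of the chromosome arms that meet the same rule add up to 9.93 Mb, or 7.41% of the arms. The peaks lay in 593 host genes when each was given to its innermost host, and 59 of them lay in the bodies of several protein-coding genes at once.

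Chromatin immunoprecipitation followed by sequencing was carried out on whole prepupae, with males and females pooled, of a stable transgenic line that carries CG4318 joined at its C terminus to GFP. An antibody against GFP pulled down sonicated chromatin in 3 biological replicates of 1 group, all from this 1 transgenic line, and the labels mention no mutant or untagged animals in this set. A possible control experiment is named in the labels and was not analysed here. The age in the labels cannot be that of a prepupa, so the stage label was used. Each replicate has a list of 30000 candidate regions, and the reproducible list was made from them and from a pooled list. Replicate 3 stood apart: it has no candidate at 178 of the 815 peaks, against 4 in replicate 1 and 0 in replicate 2, so values are given by replicate. No read counts are given, so the sequencing depth is unknown. Intervals therefore cover counting error over peaks only. Whole animals hold many tissues, so many cells with a little of the protein at a site and few cells with much of it cannot be told apart.

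Introns near a TSS often hold enhancers and alternative promoters, and many fly genes start at several promoters, so that a site upstream of an internal TSS is also intronic. Intron 1 of fly genes is commonly the longest, and the introns of developmental genes hold much of their regulatory DNA. The prepupa is the short stage at which a pulse of the steroid hormone ecdysone turns a larva into a pupa. A summit is the base at which a peak's signal is highest. The signal score is the value that the authors' peak caller gave each region, on a scale that is not stated, so scores and ranks are compared within 1 list only.

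Of the 7 strongest of these peaks, 6 are shown as the dm6 (Release 6) reference sequence of the summit base and 50 bp on either side, plus strand, to show the base composition that is measured next over all of the peaks. Capitals mark the longest run of A and T alone. The windows are chr2L:481013-481113 in ush, chr3L:14759469-14759569 in Trl, chr2L:7188577-7188677 in CG4496, chr2L:6612672-6612772 in CG11050, chrX:4910326-4910426 in CG32772 and chr3R:11760997-11761097 in Lk6.
ush: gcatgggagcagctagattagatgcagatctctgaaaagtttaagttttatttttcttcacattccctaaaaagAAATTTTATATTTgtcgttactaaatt
Trl: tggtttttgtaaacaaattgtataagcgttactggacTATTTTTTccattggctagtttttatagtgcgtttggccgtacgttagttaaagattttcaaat
CG4496: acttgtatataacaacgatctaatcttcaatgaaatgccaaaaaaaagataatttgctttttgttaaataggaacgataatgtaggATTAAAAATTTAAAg
CG11050: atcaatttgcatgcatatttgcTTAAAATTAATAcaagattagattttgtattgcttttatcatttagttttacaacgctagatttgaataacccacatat
CG32772: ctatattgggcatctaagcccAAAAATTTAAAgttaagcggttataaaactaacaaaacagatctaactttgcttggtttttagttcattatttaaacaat
Lk6: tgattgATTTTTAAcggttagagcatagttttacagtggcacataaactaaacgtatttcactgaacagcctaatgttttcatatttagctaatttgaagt
Their GC content was 29.7% in ush, 31.7% in Trl, 23.8% in CG4496, 24.8% in CG11050, 27.7% in CG32772 and 30.7% in Lk6. The longest run of A and T measured 13 bp in ush, 8 bp in Trl, 14 bp in CG4496, 12 bp in CG11050, 11 bp in CG32772 and 8 bp in Lk6. The third strongest peak, in HmgZ and HmgD, is the one not shown, and its GC content of 36.6% was higher than that of the 6 shown.

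Low GC at the summit held across the 815 peaks. These summit windows had a median GC of 30.7%, with a range of 12.9% to 57.4%, against a median of 43.6% in windows 400 bp to either side and of 38.6% over the bases that meet the rule. The summit window had less GC than the mean of its own flanks at 738 of the 815 peaks, or 90.6%. The median longest run of A and T was 10 bp at the summits, against 10 bp at the other reproducible peaks, 7 bp in the flanks and 8 bp over the bases that meet the rule. Runs of 15 bp or more occurred in 19.4% of the summit windows, against 21.3% at the other reproducible peaks and 5.03% in the flanks. By replicate, with each replicate's own strongest regions, the median GC was 30.7%, 30.7% and 31.7% at TSS-proximal intronic summits, and 30.7%, 29.7% and 30.7% at promoter summits (within 500 bp of a TSS). The difference was 0.660 ± 0.572 percentage points (mean ± SD, n = 3; 2-sided exact sign-flip permutation p = 0.5). Intronic summits farther out, beyond 2000 and up to 10000 bp from a TSS and called mid-distance intronic from here on, had medians of 30.7%, 31.7% and 31.7%, and the TSS-proximal peaks differed from them by -0.330 ± 0.572 points (exact permutation p = 1).

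**Figure D1:**
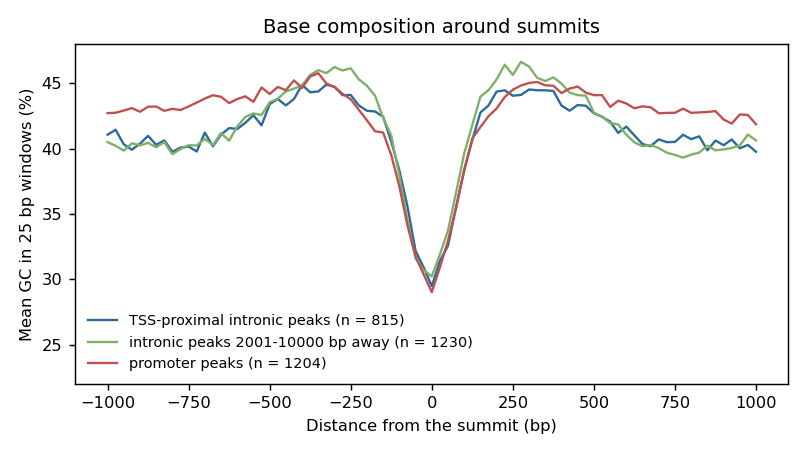
Mean GC content (%) in 25 bp windows against the distance from the summit (bp), for the TSS-proximal intronic peaks (n = 815), mid-distance intronic peaks, beyond 2000 and up to 10000 bp from a TSS (n = 1230), and promoter peaks (n = 1204). All 3 lines have their lowest point at the summit and rise on both sides of it.

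Among the short sequence motifs counted, TATAAA and GAGAG differed most, in percentage points, between the summits and the flanks. The motifs were counted over windows and not by replicate, and no test was made. Intervals here cover counting error over windows, some of which lie in peaks that share replicate regions. TATAAA holds A and T alone, and median GC was 30.7% at the summits against 43.6% in the flanks. How far the motif shares follow base composition was not tested. The motif TATAAA, counted on either strand, was in 26.9% of the summit windows (95% Wilson interval 23.9 to 30.02), against 24.9% at the other reproducible peaks, 8.96% in the flanks and 14.5% over the bases that meet the rule. GAGAG, the core letters bound by the GAGA factor, was in 7.36% (5.76 to 9.36), against 8.35% at the other peaks, 20.2% in the flanks and 11.1% over the bases. A run of 8 A, AAAAAAAA, was in 9.33% against 8.58%, 7.24% and 6.83% of the same sets. CACGTG was in 0.613% (5 windows), against 0.401%, 1.41% and 1.15% of those sets. CAGGTAG was in 0.123% (1 window), against 0.330%, 0.368% and 0.490%, and TGACTCA was in 0.245% (2 windows), against 0.613%, 0.920% and 1.26%. These motifs can overlap A/T runs or one another, and a match is a description of letters and not a binding site.

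The strongest TSS-proximal intronic peak had a signal score of 2306 and ranked 3 of all reproducible peaks. It lay at chr2L:481063 in intron 1 of ush, which encodes a zinc-finger cofactor of GATA factors, 1375 bp upstream of the TSS of cbt, a zinc-finger transcription factor gene. Its own scores were 881, 740 and 656 in replicates 1, 2 and 3, with ranks 3, 5 and 3. The peak at chr3L:14759519 in intron 2 of Trl, which encodes the GAGA factor, was next with 2163, and had 818, 801 and 550 in the 3 replicates, with ranks 5, 3 and 6. A peak at chr2R:21703391 in the overlapping genes HmgZ and HmgD, which encode HMG-box proteins that bend DNA, scored 2137 and had 809, 777 and 554, with ranks 6, 4 and 5. All 3 of these peaks were among the 6 strongest regions of every replicate.

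The next peaks lay in CG4496 with a score of 1933 and in CG11050 with 1894. In CG11050 the summit fell in an intron of 140 bp, the shortest that held one, while the regions themselves had a median width of 420 bp. CG32772 scored 1585 and Lk6, which encodes a kinase of the translation factor eIF4E, scored 1577. CG9663 scored 1399 and Adf1, which encodes a MADF-domain transcription factor, scored 1363. CG3726 scored 1313, Reph 1260 and CG9837 1142. ImpL2, an ecdysone-inducible gene whose secreted product binds insulin-like peptides, scored 1073, and its replicate scores were 413, 370 and 314. In CG1677 the strongest peak scored 1052 and lay 761 bp upstream of brk, a nested gene that encodes a repressor of Dpp target genes. Baldspot, a fatty acid elongase gene, scored 1035 and LPCAT, a lysophospholipid acyltransferase gene, scored 1015. The last of the 20 strongest were in simj, a gene of the Mi-2/NuRD complex, with 967, in CG17834 with 966, in neur, a ubiquitin ligase gene of Notch signalling, with 946, and in NFAT with 945. All 20 were among the 5056 strongest regions of each replicate, called its top list from here on. Their ranks ran from 3 to 135 in replicate 1, from 3 to 125 in replicate 2 and from 3 to 167 in replicate 3.

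Over all 815 peaks the score had a median of 202 and quartiles of 143 and 311. The median was 191 at the other reproducible peaks, 243 at promoter peaks, 186 at mid-distance intronic peaks and 164 at intronic peaks still farther away. Of the 100 strongest reproducible peaks, 19 were TSS-proximal intronic, as were 88 of the 500 strongest and 170 of the 1000 strongest. Their share over all reproducible peaks was 16.1%. Promoter peaks, 23.8% of all, made up 63 of the 100 strongest and 239 of the 500 strongest. Mid-distance intronic peaks, 24.3% of all, made up 10 and 81 of them. Scores above 1000 occurred at 16 of the 815 TSS-proximal intronic peaks and scores above 500 at 93. The median rank of the TSS-proximal intronic peaks was 2410, 2428 and 2508 in replicates 1, 2 and 3, against 2652, 2667 and 2450 for the other reproducible peaks. The order was thus turned round in replicate 3. The difference of -141 ± 172 ranks was smaller than its spread (exact permutation p = 0.5), and without replicate 3 it was -240.5. A peak with no candidate in a replicate has no rank there. In replicate 3 this was 21.8% of the TSS-proximal intronic peaks and 15.3% of the other reproducible peaks.

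Support by replicate was lowest in replicate 3. Of the 815 peaks, 692 (84.9%) were overlapped by the top list of replicate 1, where the share over all reproducible peaks was 84.6%, and 701 (86.0%) by that of replicate 2, where it was 84.2%. Only 575 (70.6%) were overlapped by that of replicate 3, where it was 73.3%. In all 3 top lists there were 455, or 55.8%, against 56.6% of all reproducible peaks, and 8 were in none, where the share over all peaks was 1.17%. The reproducible list was derived from these replicates, so the level of support is built in. The share in the top list differed between TSS-proximal intronic and other reproducible peaks by 0.352, 2.14 and -3.23 percentage points in replicates 1, 2 and 3. The mean was -0.245 ± 2.73 (exact permutation p = 1), and without replicate 3 it was 1.25. Scores of the same peak had Spearman coefficients of 0.81 between replicates 1 and 2 (811 peaks), 0.79 between 1 and 3 (634) and 0.82 between 2 and 3 (637). These are across peaks, some of which share a replicate region.

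**Figure D2:**
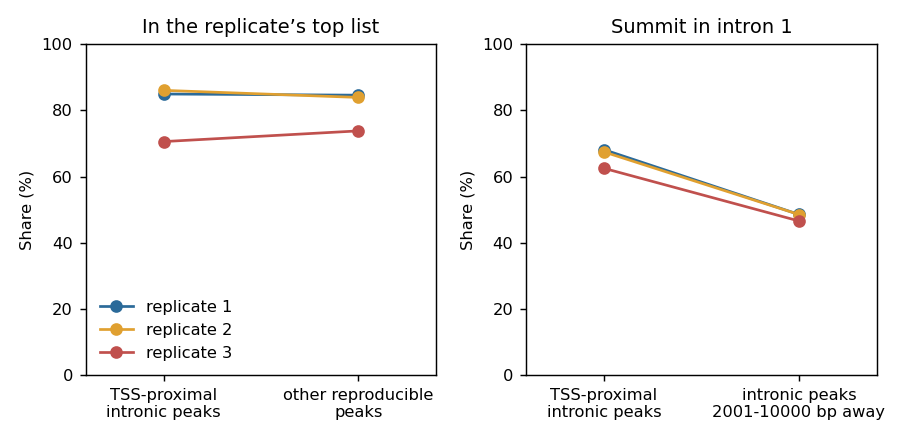
Share (%) of TSS-proximal intronic peaks and of other reproducible peaks found in each replicate's top list (left), and share (%) of summits in intron 1 among each replicate's own TSS-proximal intronic summits and its mid-distance intronic summits, beyond 2000 and up to 10000 bp from a TSS (right). Each line joins the values of 1 replicate, and replicate 3 is lowest in every column.

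Of the 815 peaks, 178, or 21.8%, had no candidate region of any rank in replicate 3, where the share over all reproducible peaks was 16.4%. In replicate 1 there were 4 such peaks (0.491%, over all peaks 0.435%), and in replicate 2 there were 0 (over all peaks 0.158%), which allows a share of up to 0.469% by the Wilson interval. At the other reproducible peaks the share without a candidate in replicate 3 was 15.3%. It was 27.5% at promoter peaks, 14.0% at mid-distance intronic peaks and 4.94% at intronic peaks beyond. The 178 peaks had a median score of 202 in the reproducible list, against 203 for the 637 that replicate 3 lists. Their median GC was 30.7% in both sets, 68.5% of them lay in intron 1 against 65.5%, and 69.7% lay downstream of the TSS against 64.8%. Their introns were shorter, with a median of 5507 bp against 7626 bp. The share without a candidate in replicate 3 was 14.98% where the nearest TSS also had a promoter peak and 24.2% where it had none. Among the 100 strongest TSS-proximal intronic peaks, 14 had no candidate in replicate 3 and 0 lacked one in replicate 1 or 2. What sets replicate 3 apart was not tested.

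These 14 strong peaks ranked high in the other replicates. The first was in schlank, a ceramide synthase gene, with a score of 767 and replicate scores of 293 and 288 (ranks 228 and 175). The peak in Hsp83, the fly Hsp90 gene, scored 660 and had 224 and 279 (ranks 457 and 193). SREBP, which encodes a transcription factor of lipid synthesis, scored 518 and had 230 and 166. The others were in Myo61F, pico, CG1737, ITP, aru, CG42507 with Trl, CG5854, waw with bbx, CG46429 with Sesn, fwe and tou, with scores of 633 in Myo61F down to 488 in tou. Replicates 1 and 2 each had all 14 in their top list, and 8 of the 14 lay in intron 1.

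Most TSS-proximal intronic peaks lay in intron 1. Counted in the canonical transcript where it holds the summit, 539 were in intron 1 (66.1%, interval 62.8 to 69.3), 171 in intron 2 (21.0%) and 105 in a later intron (12.9%). Of the bases that meet the rule, 52.1% are in intron 1. At mid-distance intronic peaks the share in intron 1 was 49.0%, and at those beyond it was 31.1%. By replicate, the share in intron 1 was 68.1%, 67.4% and 62.5% for TSS-proximal intronic summits and 48.6%, 48.5% and 46.6% for mid-distance intronic summits. The difference of 18.1 ± 1.95 points was larger than its spread and in the same direction in 3 of 3 replicates, and the exact permutation p was 0.25, the smallest that 3 replicates allow. Against the bases the difference was 13.9 ± 3.07 points (exact permutation p = 0.25). Summits near a TSS fall in intron 1 partly by the rule itself, and the comparison with the bases is the one that carries the same rule. The median score was 212 in intron 1, 200.9 in intron 2 and 170 in later introns.

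**Figure D3:**
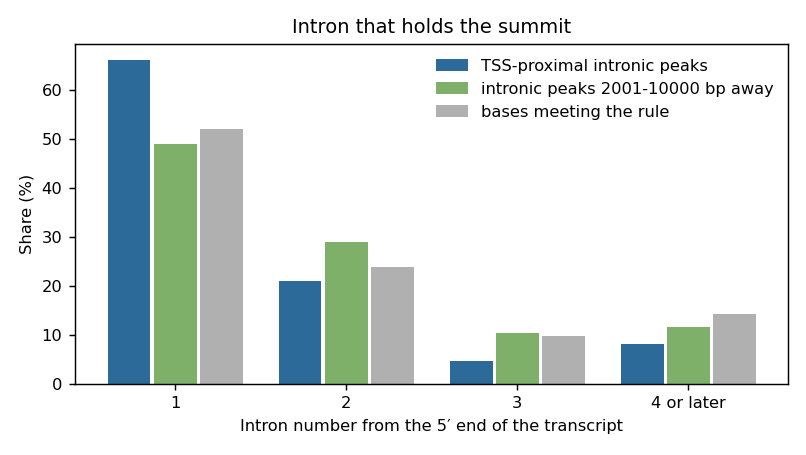
Share (%) of summits or bases by the number of the intron from the 5′ end of the transcript, for the TSS-proximal intronic peaks, intronic peaks beyond 2000 and up to 10000 bp from a TSS and the bases that meet the rule. The TSS-proximal peaks have 66.1% in intron 1, against 49.0% and 52.1%.

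The introns that held the peaks had a median length of 7310 bp, with quartiles of 3094 and 14514 bp and a longest of 132737 bp. The median was 4871 bp over the bases that meet the rule, 13279 bp at mid-distance intronic peaks and 27152 bp at intronic peaks beyond. By replicate it was 6586, 6485 and 7892 bp, against 12935, 12520 and 13361 bp at mid-distance intronic summits, a difference of -5951 ± 446 bp, lower in 3 of 3 replicates (exact permutation p = 0.25). The distance rule itself bears on intron length, so the comparison with the bases is the one that carries the same rule. Introns under 1 kb held 40 peaks, or 4.91%, against 20.03% of the bases. By replicate the share in such short introns was 6.38%, 5.53% and 3.90%, a difference from the bases of -14.8 ± 1.26 points, lower in 3 of 3 replicates (exact permutation p = 0.25). Introns of 5 to 20 kb held 43.3% of the peaks against 33.8% of the bases, and those of 20 kb or more 16.3% against 15.5%. The median score lay between 195 and 207 in each of the 4 length classes, from under 1 kb to 20 kb or more.

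Of the 815 peaks, 278 lay upstream and 537 downstream of the nearest TSS, on that gene's strand. The downstream share of 65.9% stood against 67.4% of the bases, and by replicate it was 65.7%, 66.3% and 63.5%, a difference of -2.25 ± 1.49 points (exact permutation p = 0.25). It was -6.89 points up to 1000 bp from the TSS and 1.47 beyond. The nearest TSS belonged to a host gene at 735 peaks, or 90.2%, against 81.0% of the bases. The share by replicate was 90.7%, 91.2% and 88.0%, a difference of 8.99 ± 1.72 points in the same direction in all 3 (exact permutation p = 0.25). Of these, 218 were upstream of an internal TSS of their own host, or 26.7% of all 815 peaks against 19.0% of the bases. By replicate that share was 27.2%, 26.9% and 27.8%, 8.33 ± 0.480 points above the bases (exact permutation p = 0.25). The difference was 12.7 points up to 1000 bp from the TSS and 4.75 beyond. Where the nearest TSS was another gene's, at 80 peaks, that TSS lay inside the host body at 75 of them. Upstream of another gene's TSS there were 60 peaks (7.36% against 13.6% of the bases), and downstream of one there were 20 (2.45% against 5.42%).

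The density of peaks per Mb of bases meeting the rule was 96.1 at 501 to 750 bp and between 73.3 and 83.5 in the 5 bins of 250 bp farther out. In the nearest bin it was 124 upstream (87 peaks) and 80.9 downstream (103 peaks). By replicate the density there was 128, 150 and 108 per Mb upstream, against 79.3, 79.3 and 61.3 downstream. The difference of 55.6 ± 12.9 per Mb was higher upstream in 3 of 3 replicates (exact permutation p = 0.25), and this bin was singled out after its values were seen. From 751 to 2000 bp the upstream density differed from the downstream one by -5.56 ± 8.61 per Mb (exact permutation p = 0.5), and the bins in that range went both ways. Upstream against downstream, the density was 54.9 against 96.7 in the bin that ends at 1250 bp and 64.0 against 80.8 at 1251 to 1500 bp. It was 87.6 against 67.0 at 1501 to 1750 bp and 96.2 against 68.4 at 1751 to 2000 bp, again higher upstream. These single bins were not tested. The rule's edges cut through a continuous range. Just inside, at 501 to 600 bp, there were 76 intronic peaks with a median score of 200.5, and just outside, at 401 to 500 bp, 97 with a median of 225. At the far edge there were 47 from 1901 to 2000 bp, with a median of 207, and 45 in the next 100 bp, with a median of 218.

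**Figure D4:**
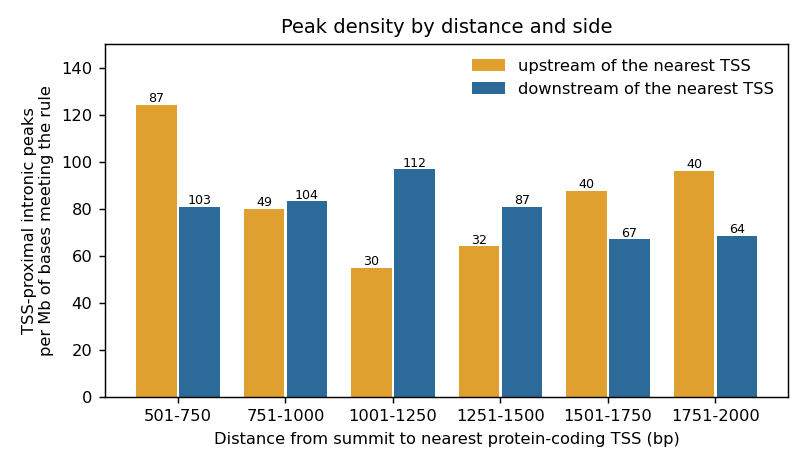
TSS-proximal intronic peaks per Mb of bases that meet the rule, by distance from the summit to the nearest protein-coding TSS (bp), upstream and downstream of that TSS. The number over each bar is the count of peaks, and the tallest bar, 124 per Mb, is upstream at 501 to 750 bp.

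The nearest TSS also had a promoter peak at 207 of the 815 peaks, or 25.4%, against 16.8% for mid-distance intronic peaks. By replicate the shares were 25%, 23.6% and 20.1%, against 19.0%, 17.8% and 10.8%, a difference of 6.99 ± 1.95 points in the same direction in all 3 (exact permutation p = 0.25). It was 3.33 points for the peaks up to 1000 bp from the TSS and 9.80 for those beyond. The 207 peaks had a median score of 221, and the other 608 had 197. Another reproducible summit lay within 1000 bp of 271 peaks, or 33.3%, against 29.7% of the mid-distance intronic peaks. Among the TSS-proximal intronic summits themselves, 48 neighbouring pairs were 199 to 246 bp apart. In 41 groups, which hold 82 peaks, the peaks shared the same best region in every replicate.

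Across the arms, 2L held 133 of the peaks, 2R 138, 3L 165, 3R 180, X 199 and chromosome 4 held 0 on 0.0877 Mb of bases that meet the rule. The X chromosome had 100.7 peaks per Mb of such bases, against 82.1 over all arms. Its share was 23.9%, 25.2% and 25.3% of each replicate's TSS-proximal intronic summits, against 19.9% of the bases, a difference of 4.88 ± 0.805 points (exact permutation p = 0.25). With top lists 2 times as long the difference was 2.77 points.

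Of the 593 innermost host genes, 443 held 1 peak, 104 held 2, 31 held 3 and 15 held 4 or more, and those 15 held 71 peaks. Tlk, which encodes a kinase that acts on the histone chaperone Asf1, had 7 peaks with scores from 124 to 571 along 69.8 kb, of which 4 were in all 3 top lists. Svil, the fly supervillin gene, also had 7, with scores of 111 to 203 along 122 kb, and 2 of them were in all 3 top lists. In CG1677 all 6 peaks lay in 1 intron of 73902 bp, upstream of the nested genes unc-119, brk and CBP, and the score of 1052 next to brk stood against a median of 256. In shn, a zinc-finger gene that acts with Mad in Dpp signalling, 5 of 6 peaks were in all 3 top lists, and scores ran from 123 to 403. Tpr2, a co-chaperone gene, had 5 peaks in 1 intron, 3 of them without a candidate in replicate 3. The 5 peaks rest on 4 distinct sets of replicate regions. Those at chr2L:16503093 and chr2L:16503295, both without a candidate in replicate 3, share their regions in replicates 1 and 2.

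**Figure D5:**
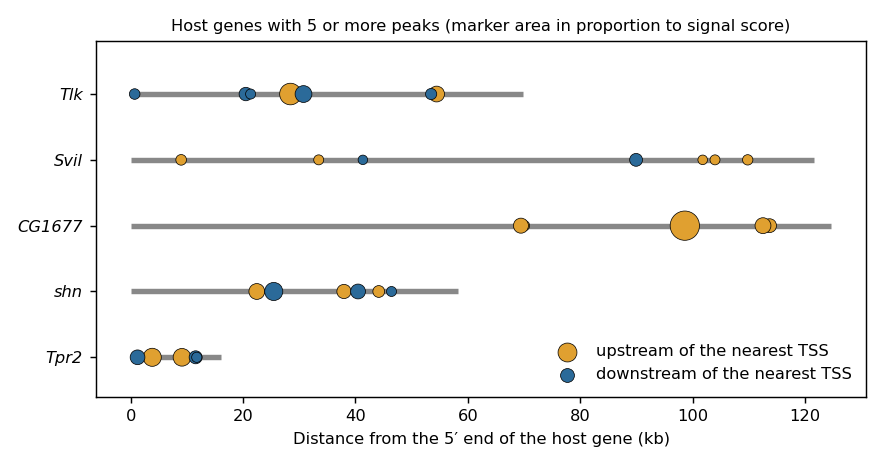
Positions of the TSS-proximal intronic peaks along the 5 host genes with 5 or more of them, as distance (kb) from the 5′ end of the gene. Grey bars are gene bodies, marker area is in proportion to the signal score and colour gives the side of the nearest TSS, and the largest marker is the CG1677 peak of 1052 near brk.

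The other 10 genes had 4 peaks each. The strongest peak of HmgZ scored 2137, that of sbb 706, that of brat, a translational repressor gene, 683 and that of psq, a BTB-domain protein gene, 445. RhoGAP18B reached 571, siz 292, CG32264 261, chas 258, Tsp96F 219 and shot, which encodes a spectraplakin that links actin and microtubules, 208. In Tsp96F the 4 peaks lay downstream of 1 TSS, with 1194 bp between the first and the last summit. All 4 were in the 3 top lists, but they rest on only 2 regions in each replicate, each shared by a pair of peaks. In HmgZ, chas, psq, shot and siz the 4 peaks likewise rest on only 3 distinct sets of replicate regions in each gene.

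Host genes were then counted in 20 lists of genes of the fly's developmental pathways and housekeeping processes. Over all protein-coding genes with bases that meet the rule, 634 of 9062, or 7.0%, hosted a TSS-proximal intronic peak, counting every host of a peak. In the 20 lists together it was 17.8% of 569 genes. Genes differ in how many bases meet the rule, so peaks per Mb of such bases are given too, 119 in the lists together against 82.7 over all genes. The lists were chosen with earlier results of these data known, so a higher share in them may be partly built in and is only a description. No test was made between lists.

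Ecdysone response genes hosted peaks at 10 of 30 genes, with 102 peaks per Mb. EcR, the ecdysone receptor gene, had peaks of 238 and 202, Eip74EF, an ETS-factor gene of the early response, had 488, and br, the Broad transcription factor gene, had 540. Eip75B, a nuclear receptor gene, had 240 and Eip78C had 253. The nearest TSS was that of Mur2B at the br peak and that of CG43218 at the Eip78C peak. The peaks of EcR and Eip74EF were in 2 top lists and had no candidate of any rank in the remaining replicate. Those of br, Eip75B and Eip78C were in all 3 top lists. Of the 10 hosts, 5 had a peak in all 3. The weaker hosts tai, Hr4, vri and Blimp-1 had peaks of 116 to 196. The strongest of the list was the ImpL2 peak of 1073.

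In the 7 signalling lists, between 22.2% and 35.3% of the genes hosted a peak. The insulin, TOR and growth list, at 7.69%, is not among these and is given further below. Receptor tyrosine kinase and Ras genes hosted peaks at 12 of 34, with 214 per Mb, led by sty, the sprouty inhibitor gene, at 830 and with aos, a secreted EGF receptor antagonist gene, at 341. Dpp and activin genes did at 5 of 20, with 244 per Mb. Besides ush and shn they included wit, a type II receptor gene with 876, and put, another, with 393. The nearest TSS at the wit peak of 876 was that of CG32259. Wingless and Frizzled genes hosted peaks at 9 of 28, with 173 per Mb. They were led by dco, a casein kinase gene, at 341, and sgg, the GSK3 kinase gene, at 340. JAK/STAT and JNK genes hosted peaks at 7 of 22, with 230 per Mb. They were led by msn, a kinase gene of the JNK pathway, at 416, with puc, its phosphatase gene, at 372. Among these hosts, Ptp61F held only peaks whose nearest TSSs were those of rho and ru, which the receptor tyrosine kinase list also counts. Hippo and planar polarity genes hosted peaks at 6 of 22, with 169 per Mb, led by wts, the Warts kinase gene, at 391. Hedgehog genes did at 4 of 13, with 145 per Mb, led by the peak of 323 that ttv shares with LamC. Notch genes did at 4 of 18, with 146 per Mb, led by neur.

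Insulator and architectural genes hosted peaks at 5 of 21, with 11 peaks in Trl, psq, ttk, HmgD and HmgZ. Counted once for each host, they came to 336 per Mb. RNA-binding protein genes did at 9 of 34, led by brat at 683, with shep at 673 and Rbp9 at 540. Muscle and cytoskeleton genes did at 10 of 42, led by Moe, the moesin gene, at 598, and circadian clock genes at 4 of 13, with 90.7 per Mb, led by dco as above. Axon guidance and adhesion genes did at 8 of 53, with 54.9 per Mb, led by the peak of 539 that kirre shares with CG32795.

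In the other 7 lists it was between 0 and 8.33% of the genes, though 3 of these lists had more peaks per Mb than all genes. Polycomb, trithorax and remodelling genes hosted a peak at 1 of 38, with 30.3 per Mb, in ph-p, a gene of the Polycomb complex PRC1, at 262. Homeobox and patterning genes did at 2 of 55, with 25.6 per Mb, in lab at 305 and 244 and in Abd-B at 123. Ion channel and synapse genes did at 2 of 38, with 45.8 per Mb, led by KCNQ at 506, a peak nearest the TSS of mlt. Core cell cycle genes did at 2 of 31 with 167 per Mb, in Tlk, which alone held 7 peaks, and grp. Insulin and growth genes did at 2 of 26 with 114 per Mb, led by Mnt at 302, and apoptosis and autophagy genes at 2 of 24 with 163 per Mb, led by Diap1, the caspase inhibitor gene, at 374. Of 14 glycolysis and lactate genes with such bases, 0 hosted one.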

How the data were processed

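The authors deposited peak lists in dm6 and dm3 coordinates; the dm3 lists were not used here. The signal score of each region and its −log10 q-value were deposited as the authors' peak caller gave them, and region starts, ends and summits were deposited as positions in bp. The −log10 q-value was read only to see that 77.7% of the 815 peaks share its highest value. The samples' descriptions trace each replicate list to its alignment plus 1 other file of unstated role. They trace the reproducible list to an irreproducible discovery rate threshold applied to the replicate and pooled lists. Names and versions of the aligner and the caller are not given in the sources available for this work.

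The members, gene lists and tests were chosen with earlier results of these data known. Gene models were from Ensembl release 115 (annotation 54) and sequence from the RefSeq copy of Release 6; coordinates are 1-based. Bases meeting the rule were sampled every 100 bp. A replicate supported a peak when a region of its 5056 strongest overlapped it by at least 1 bp. Introns were numbered in the canonical transcript of the innermost host where it holds the summit, otherwise in the transcript with most exons that does. Values by replicate come from each replicate's own 5056 strongest summits, with some exceptions. The median rank, replicate support and the share with no candidate instead follow the reproducible peaks in each replicate's list. Differences were tested by 2-sided exact sign-flip permutation over 3 replicates, where the smallest p is 0.25; over the 16 tests the Benjamini-Hochberg adjusted values ran from 0.4 to 1. Of 671 listed symbols 644 matched a gene. Named genes are hosts of the 20 strongest peaks, hosts of 4 or more, the strongest peak of each list, and the peaks among the 100 strongest with no candidate in a replicate. Other listed genes were named after their values were seen. The position rule script was checked at random positions of the genome and the overlap script on made-up regions. The permutation script was checked on simulated sets with more pairs than the 3 replicates used here. Alternatives covered distance limits, TSS choice, list length, overlap, window size and the omission of each replicate. The software was scipy 1.17.1, pandas 2.3.3 and numpy 2.4.6 under Python 3.11.15.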

Additional observations from a re-analysis of the deposited data

Results flagged for a closer look

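Among the 30000 regions of the pooled candidate list, which the comparisons above do not use, 3065 met the position rule and 2136 of these overlapped no reproducible peak. Of these 2136 regions, 16 nevertheless overlapped the strongest regions of 2 or more replicates, 1 of them those of all 3. They are candidate regions outside the reproducible list, and no control sample was analysed here to set beside them. No such count is given here for pooled candidates that do not meet the rule. Whether 16 is many or few for such regions therefore cannot be said.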

How the results depend on the processing

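The counts follow the limits chosen: 343 peaks lay 501 to 1000 bp and 472 lay beyond that, up to 2000 bp, from a TSS. The share of top-list summits that meet the rule was 15.5%, 16.5% and 13.7% in replicates 1, 2 and 3, with a mean of 15.2%. This mean was 6.58% and 8.64% for those limits and 11.6% with the TSS of the canonical transcript only. It was 13.6% with a list 2 times as long, and 14.6% to 15.98% with each replicate left out. The downstream share minus that of the bases turned positive, to 1.47 points beyond 1000 bp and 3.46 points with canonical TSSs, and was -2.84 to -1.41 with each replicate left out. Replicate support, as a difference from other peaks, was 2.82 points with lists 0.5 times as long, and -1.44 to 1.25 with each replicate left out. The share with no candidate differed by -0.0611 to 3.30 points, the first of these without replicate 3. The difference in median GC was 0 from promoter peaks with a list 2 times as long or a 51 bp window, and -0.495 to 0 from the farther intronic peaks with each replicate left out. In windows of 100 bp to either side of the summit GAGAG was in 18.4%, TATAAA in 40.98%, TGACTCA in 1.23% and AAAAAAAA in 18.3%. Wider windows hold more of any motif, and the cause of the other changes was not tested. Of 88 alternatives other than leaving out a replicate, 73 kept the direction or, for counts and shares, stayed within the limit set for them, but several of these moved by more than 1.5 times. The larger ones stand beside their results, and replicate support was -2.13 points and the share with no candidate 4.45 points with canonical TSSs. The difference in intron 1 share was 17.4 to 19.2 points from the farther intronic peaks and 12.9 to 15.7 from the bases with each replicate left out. List length did not apply to the median rank or to the share with no candidate. The alternatives for upstream of a host TSS, host TSSs, short introns, the X share, intron length, promoter peaks at the TSS and missing candidates were chosen after seeing the data. No paired analysis was possible because the series has 1 group and so no groups to pair; the differences above were taken between sets of peaks within each replicate. Canonical TSSs were not run for upstream of a host TSS, host TSSs, short introns or the X share. Depth is unknown, so an absent candidate shows only that none was listed.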
